A study of Homo sapiens with 2 samples.

Results

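The genes described here encode subunits of chromatin remodelling complexes and close relatives of those subunits. They were chosen by name: every locus with 1 gene name whose symbol begins with SMARC, ARID, INO80 or RUVBL, or is a numbered MBD, CHD or BRD gene, or is PBRM1, ACTL6A, EP400, BPTF, DPF2, RBBP4, RBBP7, MTA1, MTA2 or MTA3. This gave 58 of 12609 named genes. The names INO80B and BRD9 occur in loci that also name WBP1 and ZDHHC11, so they are no members, and CHD5, ARID3C, MBD3L1 and MBD3L2 have no row among the values used here. RNA-seq of 2 libraries was compared, both from A549, a long-established cell line of human lung adenocarcinoma. The genotype label of one is wild type and that of the other MYOCD knockdown, although the title of the second is written MYOCD-/-. MYOCD encodes myocardin, a coactivator of serum response factor. The treatment label of both samples reads Dox for 72 h, without spelling out Dox, whereas the design text describes the wild type as having had no treatment. If only the knockdown cells had Dox, its effect and that of the knockdown cannot be told apart. No label or design text used here states how the knockdown was made. Values are RPKM, reads scaled to transcript length and to the reads of the library, and in each pair of values the wild type comes first.

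Chromatin remodellers use the energy of ATP to slide, eject or exchange nucleosomes. They fall into families named for their ATPases: SWI/SNF, ISWI, CHD and INO80. SWI/SNF complexes are built around SMARCA4 (BRG1) or SMARCA2 (BRM), which exclude each other within a complex, and occur as the canonical BAF form, as PBAF and as a smaller non-canonical form. NuRD couples the CHD3 and CHD4 ATPases to histone deacetylases and to MBD2, which binds methylated DNA, or MBD3, which largely does not. A549 is known as a line with an inactivating SMARCA4 mutation, in which SMARCA2 is the remaining SWI/SNF ATPase. RNA values such as these show the level of SMARCA4 transcript and not whether it encodes a working protein.

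With 1 library in each group there is no spread between replicates, and differences are described without a test. The sums of all RPKM values were 1.02e+06 and 1.17e+06, and the depth is unknown because no counts were given. MYOCD had 0.881 and 0.400 RPKM, both under the mean of 1 RPKM from which genes are counted below. The extent of the knockdown is not read from them. The epithelial keratin KRT8 had 1545 and 1521 RPKM, its partner KRT18 had 1776 and 1683 RPKM, CDH1 had 23.8 and 22.5 RPKM, and EPCAM was low at 2.24 and 2.15 RPKM. The leukocyte marker PTPRC, the endothelial marker PECAM1 and the fibroblast collagen COL3A1 had no row, while COL1A1 had 2.76 and 2.41 RPKM.

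The remodelling genes differed little between the libraries. Each difference, called the log2 change here, is the log2 ratio of knockdown over wild type after adding 1 RPKM to both values. Genes were counted if the mean of their 2 values reached 1 RPKM, as it did for 57 of the 58 members. ARID5B was the exception with 1.06 and 0.866 RPKM. Past 2-fold there were 0 of the 57 members, while 1.36% of all 11841 genes counted were past it in either direction. At a log2 change of 0.32 or more in size, 1 member was higher in the knockdown library (SMARCA2) and 2 were lower (SMARCD3 and MTA3). Of all genes, 8.00% were higher and 10.7% lower by that size. CHD1, with a log2 change of 0.31, did not reach it. Many genes in the full set are low or contain short RNA genes, so the shares were also taken over 7271 protein-coding genes, a set chosen after the values were seen, whose mean reached 5 RPKM and which hold no microRNA, small nucleolar or Cajal body RNA gene. Of those, 0.344% were past 2-fold, and past 0.32 in size 6.41% were higher and 7.81% lower. The median size of the log2 change, in either direction, was 0.11 over the members, 0.15 over all genes and 0.14 over the protein-coding set.

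The signed median over the members was -0.04, against 0.01 over all genes, with 23 members above 0 and 34 (59.6%) below, beside 47.9% of all genes below. This split depends on whether loci without a gene name enter the scaling. Rescaling both libraries to the same summed RPKM lowered the median of all genes to -0.17 and that of the members to -0.22, and left 8 members above 0 and 49 (86.0%) below, beside 78.1% of all genes below. With equal sums, 14 members and 25.1% of all genes were lower by 0.32 or more, and 0 members and 2.74% of all genes were higher. The distance of the members' median from that of all genes was -0.05 as deposited and -0.06 with equal sums. With equal sums 15 members changed sign: ACTL6A, ARID1B, ARID3B, BPTF, CHD7, CHD8, EP400, INO80C, INO80D, INO80E, MBD4, RUVBL1, SMARCAD1, SMARCB1 and SMARCE1. For these genes no direction is read from the signs as deposited. Rescaling on named loci alone changed the sign of INO80C and left 22 members above 0 and 35 below. Rescaling on the median gene changed 0 signs and left 23 above and 34 below. The log2 factor was -0.20 over all loci and -0.0068 over named loci. The gap between the sums thus lies mostly in loci without a gene name.

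**Figure D1:**
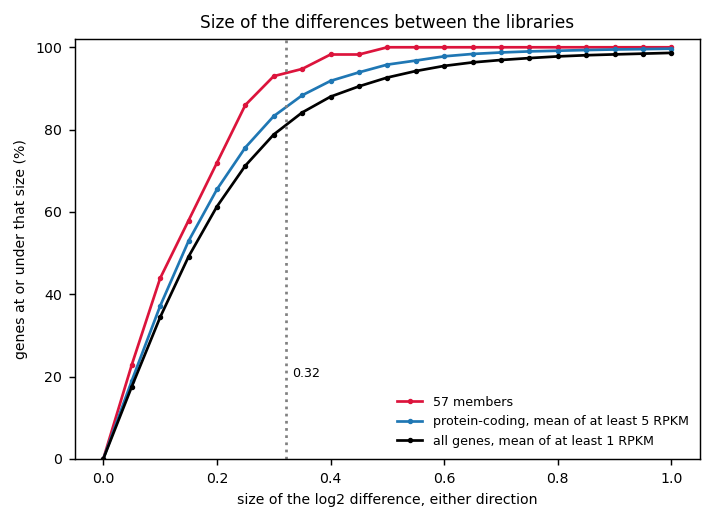
Cumulative share of genes (percent) by the size of their log2 change in either direction, for the 57 members, the protein-coding set and all genes counted. At a size of 0.25 the curves stand at 86.0% of the members, 75.6% of the protein-coding set and 71.2% of all genes.

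SMARCA4 and SMARCA2, the alternative ATPases of SWI/SNF, lay on opposite sides of 0. SMARCA4 (GENCODE release 29 on GRCh38, chr19:10960825-11079426, plus strand) had 6.83 and 5.53 RPKM, the second being 81.0% of the first, a log2 change of -0.26. SMARCA2 (chr9:1980290-2193624, plus strand) had 9.02 and 11.98 RPKM, the second being 133% of the first, a log2 change of 0.37. SMARCA2 was thus above SMARCA4 in both libraries, and it was the highest of all members in log2 change. Among all genes counted, the change of SMARCA2 stood at percentile 94.6 and that of SMARCA4 at percentile 14.4. Under equal sums the log2 changes were 0.19 for SMARCA2 and -0.43 for SMARCA4.

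The balance of the pair does not depend on how the libraries are scaled. SMARCA2 held 56.9% of the summed RPKM of the pair in wild type and 68.4% in knockdown cells, a difference of 11.5 percentage points. In percentage points this was the widest shift among the 15 paralog families compared. The ratio of SMARCA2 to SMARCA4 went from 1.32 to 2.16, a log2 shift of 0.71. By that measure the ratio of SMARCD1 to SMARCD3 shifted more, by 0.74. Shifts of gene pairs outside the members were not taken. Their sum, which does depend on scaling, was 15.8 and 17.5 RPKM, a log2 change of 0.14 as deposited and -0.05 with equal sums. Both ATPases were low beside the shared core subunits other than SMARCD3. SMARCA4 ranked 49 of 58 members by level among wild type values and 51 among knockdown values, and SMARCA2 ranked 41 and 37. SMARCE1, the HMG-box subunit present in each BAF and PBAF complex, had 8.52 times the RPKM of SMARCA4 in wild type and 11.8 times in knockdown cells.

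Such a comparison of paralogs needs reads that can be assigned to one of them. The longest annotated coding sequences of SMARCA4 (5046 bases) and SMARCA2 (4773 bases), taken from GENCODE release 29, were 74.5% identical over 4667 aligned bases. The longest run of identical bases was 26, and 0 of the 50-base words of one gene's coding transcripts occurred in the other's. The most alike stretch of 60 bases is shown because it is where assignment would be hardest. It spans a splice junction in each gene, joining exons 34 and 35 of SMARCA4 (GRCh38, chr19:11058857-11058889 and chr19:11059753-11059779, plus strand) and exons 31 and 32 of SMARCA2 (chr9:2182210-2182242 and chr9:2186096-2186122, plus strand). Capitals mark the 5 positions at which they differ.
SMARCA4: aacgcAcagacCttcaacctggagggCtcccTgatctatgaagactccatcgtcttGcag
SMARCA2: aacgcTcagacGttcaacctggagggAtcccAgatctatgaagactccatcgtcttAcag
The remaining 55 positions are the same in both.

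Myocardin acts through serum response factor, which binds the CArG box, so the promoters of the pair, whose transcripts differed in opposite directions, are shown. The windows come from RefSeq (GRCh38.p14), take the most upstream listed start of each gene, and run from 250 bases before it to 50 bases after. Capitals mark the bases GGGCGG, the core of the GC box bound by SP1-type factors, on either strand.
SMARCA4 (chr19:10960780-10961079, plus strand): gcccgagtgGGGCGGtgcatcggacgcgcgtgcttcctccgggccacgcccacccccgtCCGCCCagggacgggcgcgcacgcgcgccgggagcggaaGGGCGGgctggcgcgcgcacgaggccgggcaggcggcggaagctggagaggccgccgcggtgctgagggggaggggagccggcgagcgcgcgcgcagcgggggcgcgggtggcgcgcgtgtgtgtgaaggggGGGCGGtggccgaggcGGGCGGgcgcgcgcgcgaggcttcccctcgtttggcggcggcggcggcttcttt
SMARCA2 (chr9:2015097-2015396, plus strand): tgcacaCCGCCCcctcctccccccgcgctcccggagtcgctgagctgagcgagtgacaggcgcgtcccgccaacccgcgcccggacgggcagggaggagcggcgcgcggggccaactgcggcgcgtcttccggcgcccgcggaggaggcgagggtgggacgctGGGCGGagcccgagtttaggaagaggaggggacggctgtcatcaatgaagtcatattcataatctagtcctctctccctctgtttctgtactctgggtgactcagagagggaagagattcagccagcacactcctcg
The SMARCA4 window holds 5 such matches and 55 CpG dinucleotides at 81.3% G and C, and the SMARCA2 window holds 2 matches and 30 CpG dinucleotides at 66.7%. The table lists 2 starts for SMARCA4 and 4 for SMARCA2, and which of them were used in these cells was not measured. The GENCODE locus of SMARCA2 begins upstream of all 4, at chr9:1980290, and that start was not searched. Over all members, 48 had an entry, with 79 windows. The bases GGGCGG occurred on either strand in 63.3% of those windows and in 45.0% of all 35116 windows of that length. The member windows were also richer in G and C, with a median of 66.0% against 58.7%, and the part of base composition in the motif's share was not tested. The CArG box, searched on both strands, occurred in 0 of the 79 windows, both shown ones included, and in 1.29% of all windows. This says only that the motif is not in these windows. ACTL6A, ARID2, ARID3A, ARID3B, BPTF, CHD6, CHD7, SMARCC1 and SMARCC2 were among those not matched to this table.

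**Figure D2:**
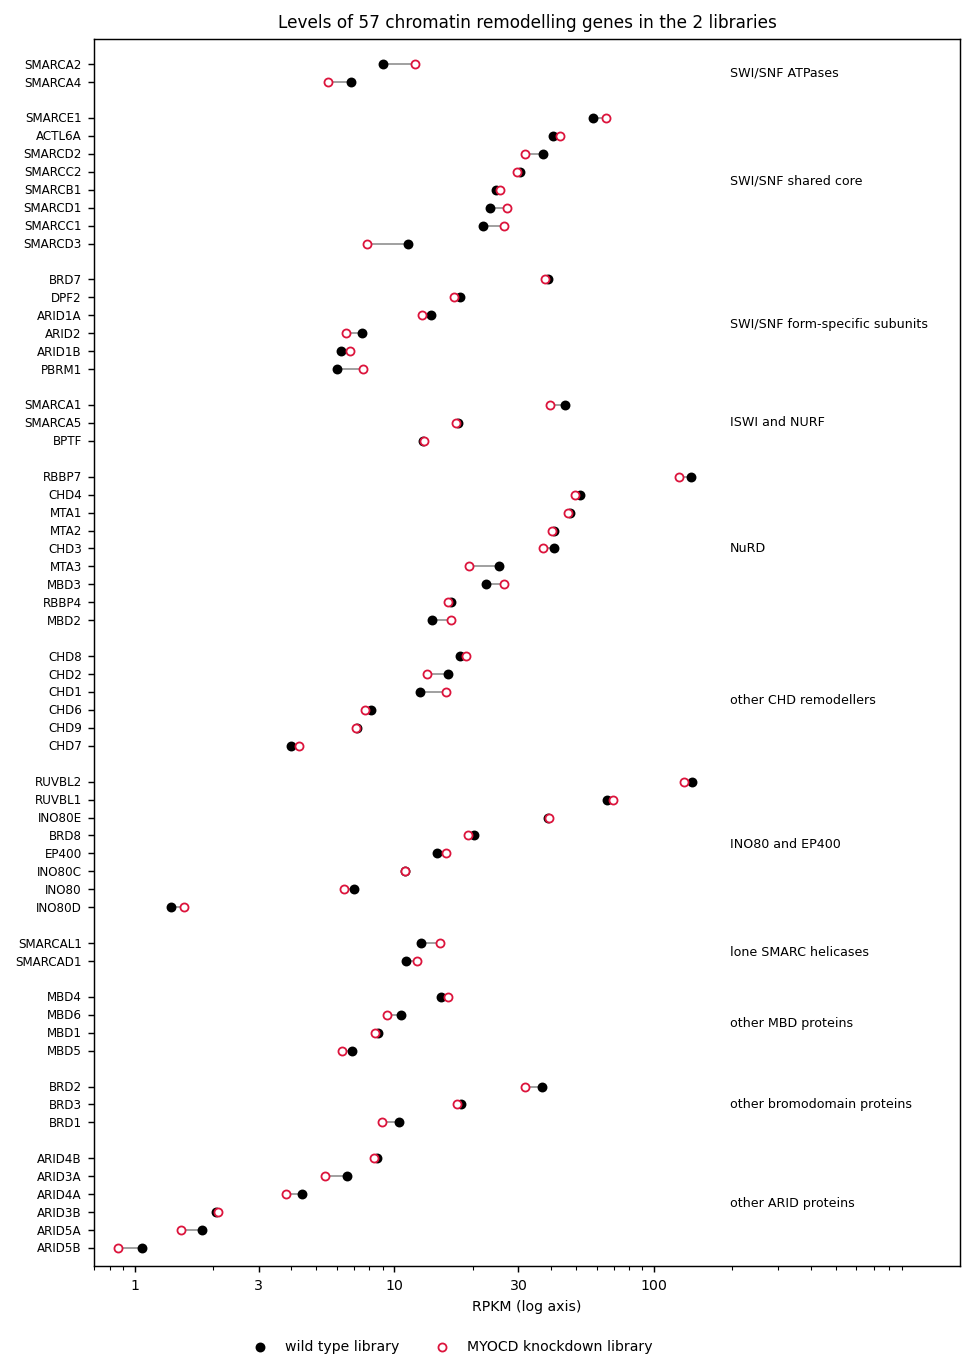
RPKM of 57 of the 58 members on a log axis, grouped by complex, with filled points for the wild type library and open points for the MYOCD knockdown library. Levels run from about 1 RPKM for ARID5B to 140 and 130 RPKM for RUVBL2, and the points of most genes nearly coincide.

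The group called the shared core here holds subunits common to canonical BAF and PBAF. Apart from SMARCD3, this core had 22.0 RPKM or more and lay above both ATPases in each library, and its paralogs differed in direction. SMARCE1 had 58.2 and 65.2 RPKM, ACTL6A, an actin-related protein also found in INO80, had 40.9 and 43.5 RPKM, and SMARCB1, the tumour suppressor known as SNF5, had 24.5 and 25.5 RPKM. These 3 subunits differed by log2 changes of 0.16, 0.09 and 0.06, each of which turned negative under equal sums. SMARCE1 shares 27.9% of its 50-base words with other annotated genes, mostly with AC073508.2, which overlaps it, so its level is less certain than that of SMARCB1, which shares 0%. SMARCC1 and SMARCC2 are the scaffold proteins BAF155 and BAF170, which pair with each other or with themselves. SMARCC1 had 22.0 and 26.3 RPKM, a log2 change of 0.25, and SMARCC2 had 30.5 and 29.6 RPKM. The share of SMARCC1 in the pair was 41.9% and 47.1%.

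The 3 BAF60 proteins, of which each SWI/SNF complex takes 1, showed the most unequal differences of the core. SMARCD3 (chr7:151238764-151277896, minus strand), the form known as BAF60C and best known from heart and skeletal muscle, had 11.3 and 7.87 RPKM. Its log2 change of -0.47 was the lowest of all members and stood at percentile 5.47 of all genes. SMARCD2, known from granulocyte development, had 37.2 and 31.7 RPKM, a log2 change of -0.22. SMARCD1, the widely expressed form, had 23.2 and 27.0 RPKM, a log2 change of 0.21 that shrank to 0.02 with equal sums. The summed RPKM of the family was 71.7 and 66.6, a log2 change of -0.11 as deposited and -0.30 with equal sums. SMARCD1 held 32.4% of it in wild type and 40.6% in knockdown cells, SMARCD2 held 51.9% and 47.6%, and SMARCD3 held 15.7% and 11.8%. None of the 3 shares a 50-base word with any other annotated gene.

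Subunits that set the form of SWI/SNF were at middle to low levels, apart from BRD7. In canonical BAF, the DNA-binding subunit ARID1A had 13.8 and 12.8 RPKM and its alternative ARID1B had 6.25 and 6.77 RPKM, so ARID1A held 68.9% and 65.4% of the pair. DPF2, a PHD-finger subunit of the same form, had 17.9 and 17.0 RPKM. The PBAF subunits did not differ together. PBRM1, which carries a row of bromodomains, had 6.02 and 7.55 RPKM, a log2 change of 0.28, while ARID2 had 7.52 and 6.50 RPKM, a log2 change of -0.18. The ratio of PBRM1 to ARID2 was 0.801 and 1.16. BRD7, the bromodomain subunit of PBAF, was higher at 39.0 and 38.0 RPKM, though 11.3% of its 50-base words also occur elsewhere, mostly in the pseudogene BRD7P2. BRD9, which marks the non-canonical form, was read only in a locus shared with ZDHHC11, which had 22.6 and 25.4 RPKM as a whole. Over all 16 SWI/SNF members 8 were above 0 and 8 below as deposited, and 12 were below with equal sums. Of all genes, 47.9% and 78.1% were below. The median log2 change of the 16 was 0.01 as deposited and -0.18 with equal sums.

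**Figure D3:**
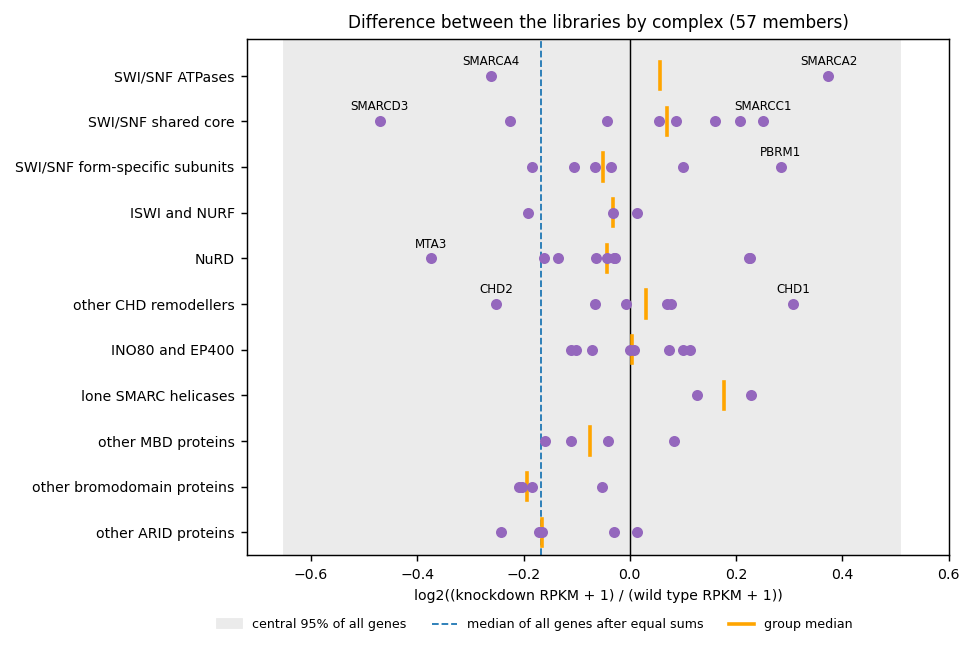
Log2 change of the 57 members counted, 1 point per gene, by complex, with the group median as an orange bar and the central 95% of all genes (-0.65 to 0.51) shaded. All 57 points lie inside the shaded range, SMARCD3 (-0.47) and SMARCA2 (0.37) at the ends, and the dashed line marks the median of all genes (-0.17) after rescaling to equal sums.

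As deposited, the ISWI members had the lowest median size of log2 change of the 11 groups, 0.03, but their signed median was -0.22 with equal sums, where the lone SMARC helicases were nearer 0. SMARCA1 and SMARCA5 encode the ISWI ATPases SNF2L and SNF2H, and BPTF is the large subunit that directs the NURF complex to methylated histone H3. SMARCA1 had 45.5 and 39.7 RPKM, a log2 change of -0.19. SMARCA5, which is usually regarded as the more widely expressed ATPase, had 17.6 and 17.2 RPKM. SMARCA1 therefore exceeded SMARCA5 2.58-fold in wild type and 2.31-fold in knockdown cells. BPTF had 12.9 and 13.0 RPKM.

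Several NuRD genes were among the highest members, and MTA3 had the lowest log2 change of the complex. The ATPase CHD4 had 51.7 and 49.4 RPKM and its alternative CHD3 had 41.2 and 37.4 RPKM, so CHD4 held 55.7% and 56.9% of the pair. CHD4 is the member whose words are least its own, since 71.7% of them also belong to AC006064.6, an annotated gene that overlaps it. The metastasis-associated proteins MTA1, MTA2 and MTA3 are alternative scaffolds that bind the deacetylases. MTA1 had 47.6 and 46.6 RPKM and MTA2 had 41.2 and 40.4 RPKM, a log2 change of -0.03 each. MTA1 shares 7.17% of its words with TEX22, which overlaps it. MTA3 (chr2:42494569-42756947, plus strand), which is known from epithelial cells as a component that restrains SNAI1, had 25.3 and 19.3 RPKM, a log2 change of -0.37 at percentile 8.30 of all genes. Its share of the family was 22.2% and 18.1%.

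The MBD-domain subunits of NuRD had like differences. MBD2, which excludes MBD3 from its complexes, had 13.9 and 16.5 RPKM, and MBD3 had 22.5 and 26.5 RPKM. Their log2 changes were 0.22 and 0.23, and 0.04 for each with equal sums. The MBD2 locus holds SNORA37, and MBD3 shares 10.4% of its words, mostly with the overlapping gene AC005943.1. The share of MBD2 in the pair was 38.3% in both libraries. The histone chaperones RBBP4 and RBBP7, also subunits of PRC2, differed widely in level and little between the libraries. RBBP7 had 139 and 124 RPKM, a log2 change of -0.16, and RBBP4 had 16.5 and 16.0 RPKM, an 8.40-fold and a 7.75-fold excess of RBBP7. RBBP4 shares 5.16% of its words with other genes, mostly the pseudogene RBBP4P1, while RBBP7 shares 0%. Of the 9 NuRD members 7 were below 0 as deposited, beside 47.9% of all genes, and 7 with equal sums, beside 78.1%, with a median log2 change of -0.04 as deposited and -0.23 with equal sums.

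**Figure D4:**
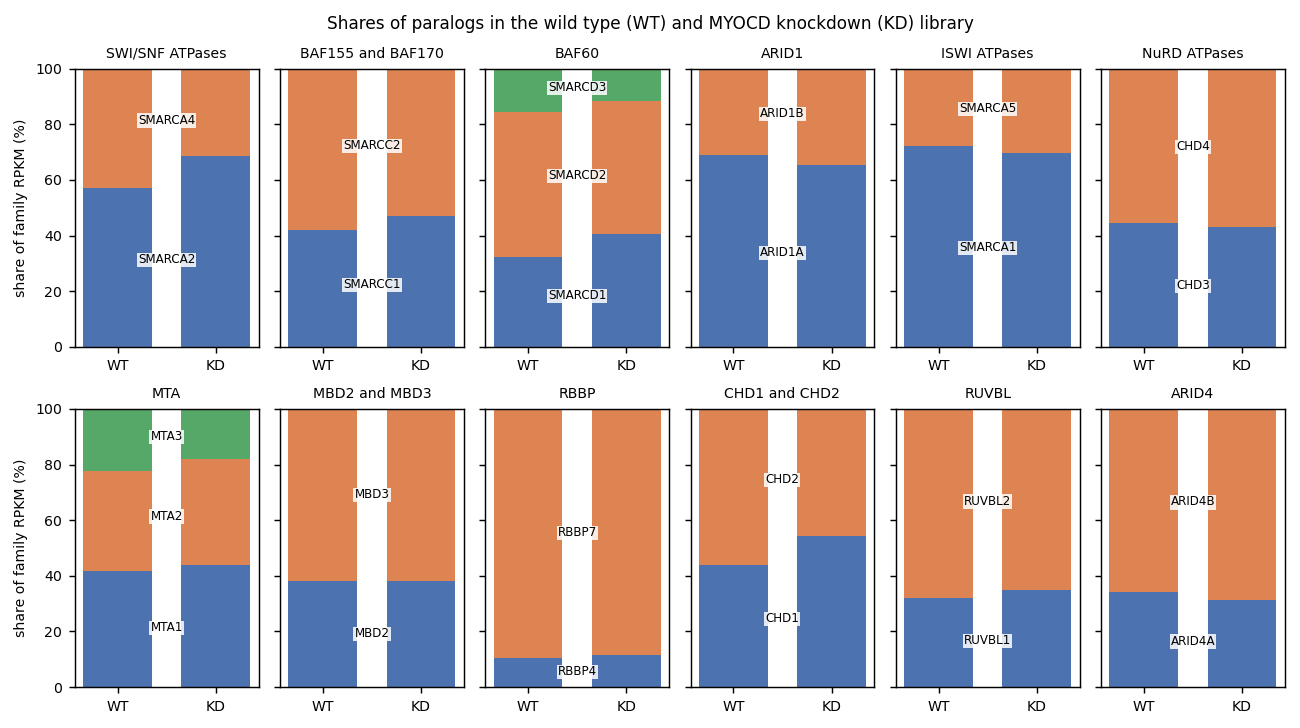
Share of each paralog in the summed RPKM of its family (percent) for 12 families, wild type library on the left and MYOCD knockdown library on the right of each panel. SMARCA2 goes from 56.9% to 68.4% of its pair and CHD1 from 43.8% to 54.1%, while the MBD2 and RBBP panels look alike in both libraries.

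Among the remaining CHD proteins, CHD1 and CHD2 exchanged places. CHD1 (chr5:98853985-98928957, minus strand), which binds methylated histone H3 at active genes, had 12.5 and 15.8 RPKM, a log2 change of 0.31. CHD2 (chr15:92900189-93028005, plus strand), its closest relative, had 16.1 and 13.3 RPKM, a log2 change of -0.25. CHD1 held 43.8% of the pair in wild type and 54.1% in knockdown cells, and with equal sums the log2 changes were 0.12 and -0.44. The CHD2 locus holds the microRNA gene MIR3175, and 10.6% of its words are shared, mostly with the overlapping gene AC013394.1. The other four of this group, CHD6, CHD7, CHD8 and CHD9, had log2 changes between -0.07 and 0.08. CHD8, which restrains beta-catenin targets, was the highest of them at 17.9 and 18.8 RPKM, and CHD7, which binds enhancers, was the lowest at 4.01 and 4.29 RPKM. The CHD8 locus holds SNORD8 and SNORD9.

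The INO80 and EP400 members were close to 0 as a group, with a median log2 change of 0.0041 (-0.18 with equal sums) and all 8 between -0.11 and 0.11 as deposited. The AAA+ ATPases RUVBL1 and RUVBL2, which form the ring at the heart of INO80, SRCAP and TIP60 complexes, were the third highest and the highest of all members. RUVBL2 had 140 and 130 RPKM and RUVBL1 had 65.9 and 69.4 RPKM, a ratio of 2.12 and 1.87. The INO80 ATPase itself had 6.96 and 6.38 RPKM, a log2 change of -0.11. Its accessory subunits ranged widely in level, from INO80E with 39.1 and 39.3 RPKM through INO80C with 11.0 in both to INO80D with 1.38 and 1.55 RPKM. EP400, the ATPase of the TIP60 complex that deposits H2A.Z, had 14.6 and 15.8 RPKM, and BRD8, its bromodomain partner, had 20.2 and 19.1 RPKM. The EP400 locus holds SNORA49, and 6.10% of its words are shared, mostly with the pseudogene EP400P1. INO80B was read only in a locus with WBP1, which had 79.9 and 66.3 RPKM as a whole.

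The SMARC proteins that act alone were both above 0 as deposited, while with equal sums SMARCAL1 was at 0.04 and SMARCAD1 at -0.06. SMARCAL1, which remodels stalled replication forks, had 12.6 and 14.9 RPKM, a log2 change of 0.23, and SMARCAD1, which acts in heterochromatin and in DNA end resection, had 11.1 and 12.2 RPKM, a log2 change of 0.13. The MBD proteins outside NuRD had a median of -0.08. MBD6, a partner of the PR-DUB deubiquitinase, had 10.6 and 9.36 RPKM and a log2 change of -0.16, and MBD4, a DNA glycosylase that repairs mismatches at CpG sites, had 15.1 and 16.1 RPKM. MBD1, which binds methylated promoters, had 8.65 and 8.39 RPKM, and MBD5, the relative of MBD6, had 6.84 and 6.26 RPKM.

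Bromodomain proteins outside SWI/SNF and EP400 had the lowest median of the 11 groups, -0.19 as deposited and -0.37 with equal sums. BRD2 and BRD3 are BET proteins, which bind acetylated histones. BRD2 had 36.9 and 31.8 RPKM, a log2 change of -0.21, and BRD3 had 18.0 and 17.3 RPKM, a log2 change of -0.05. BRD1, a scaffold of the HBO1 acetyltransferase, had 10.4 and 8.93 RPKM, a log2 change of -0.20. The differences are small beside the spread of single genes: among all genes, BRD2 stood at percentile 18.8.

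The ARID proteins outside SWI/SNF were the lowest expressed group, and 4 of the 5 counted were below 0 as deposited, beside 47.9% of all genes. ARID3A, a DNA-binding protein known from B cells and stem cells, had 6.55 and 5.39 RPKM, a log2 change of -0.24, while its relative ARID3B had 2.06 and 2.09 RPKM. ARID3B shares 20.3% of its words with AL138799.1, which does not overlap it. The retinoblastoma-binding proteins ARID4A and ARID4B, subunits of the SIN3 deacetylase complex, had 4.42 and 3.84 RPKM and 8.56 and 8.36 RPKM. ARID5A, which also binds messenger RNA, had 1.82 and 1.501 RPKM. At such levels the added 1 RPKM makes a log2 change smaller than the ratio of the values.

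Further genes of the same complexes, and a group of other SNF2-like ATPases outside them, were read from a list of names apart from the members. Of its 65 names, some of which are older and newer names of 1 gene, 54 were counted, 8 of them such ATPases. Past 2-fold there were 0, beside 1.36% of all genes. Past 0.32 in size 4 were higher and 0 lower, beside the shares of 8.00% and 10.7% over all genes. Their median was 0.0039 as deposited and -0.18 with equal sums. Of the 4 higher genes, ING3 and EPC2 are subunits of the TIP60 acetyltransferase. POLE3 is a histone-fold subunit of the ISWI complex CHRAC and of DNA polymerase epsilon. TTF2, a transcription termination factor, belongs to the other SNF2-like ATPases. ING3 had 1.53 and 2.83 RPKM, EPC2 had 2.74 and 4.18 RPKM, POLE3 had 42.1 and 56.7 RPKM, and TTF2 had 7.56 and 10.2 RPKM.

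The partners of SWI/SNF counted 9, of which 5 were below 0 as deposited and 9 with equal sums, beside 47.9% and 78.1% of all genes. SS18L1 and SS18, alternative subunits of BAF, had 11.6 and 9.53 RPKM and 27.9 and 23.9 RPKM, while BCL7B had 17.9 and 19.0 RPKM. ACTB, the actin that sits beside ACTL6A in the complex and is mostly cytoskeletal, had 2514 and 2660 RPKM. Of the 8 ISWI partners, BAZ2A, the large subunit of the nucleolar complex NoRC, had the lowest log2 change, -0.29, with 20.9 and 16.9 RPKM, followed by the spacing factor RSF1 with 9.66 and 9.51 RPKM. CHRAC1, which pairs with POLE3, had 22.3 and 25.7 RPKM. The 7 NuRD partners lay between -0.10 and 0.17, with the deacetylases HDAC1 at 50.1 and 50.2 RPKM and HDAC2 at 22.2 and 23.9 RPKM. GATAD2A, the linker of MBD2 or MBD3 to CHD4, had 11.4 and 12.9 RPKM, its alternative GATAD2B had 6.93 and 6.52 RPKM, and ZMYND8, a reader of histone marks, had 10.1 and 9.32 RPKM. In the INO80, SRCAP and TIP60 group, YY1, a DNA-binding subunit of INO80, had 45.1 and 39.6 RPKM, C20orf20 (now MRGBP) had 25.7 and 22.4 RPKM, and the SRCAP ATPase had 15.7 and 17.4 RPKM. Among other SNF2-like ATPases, 3 of 8 were below 0 as deposited and 6 with equal sums, beside 47.9% and 78.1% of all genes. In this group SHPRH, a ubiquitin ligase, had 2.69 and 3.19 RPKM. RAD54L, a recombination factor, had 8.24 and 6.88 RPKM and HLTF, a fork remodeller, had 30.3 and 27.2 RPKM.

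Some features of the members are not fixed by their names. Their levels had no common height: in the wild type library they ran from percentile 3.70 (INO80D) to 95.7 (RUVBL2). Of the 57, 35 lay above the median gene there, and their median level stood at percentile 55.6, near that of genes at large. The order of their levels was nearly the same in both libraries, with Spearman's rho of 0.989 across the 58 genes, against 0.959 across all genes; this is a description across genes, which are not independent replicates. Their longest annotated coding transcripts had a median of 5722 bases and a range from 1901 (ACTL6A) to 14136 (INO80D). Across members, the log2 change and that length had a Spearman's rho of 0.12. Of the 58 loci, 8 hold a short RNA gene on their own strand: ARID4B, CHD2, CHD3, CHD4, CHD8, EP400, MBD2 and RUVBL2. Without these, the median log2 change of the members was -0.04, as it was with them, and the 3 members past 0.32 in size are not among the 8. In 37 of the 58 genes no 50-base word of the coding transcripts occurred in another annotated gene, and in 13 over 1% did. No share over all genes is given for short RNA genes or shared words. These counts are therefore not read as particular to the members.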

How the data were processed

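RNA-seq values of 1 wild type and 1 MYOCD knockdown library of A549 cells were used. The deposited values are RPKM per locus, computed by the authors; the unit comes from the name of the table, and the values are not whole numbers. Per the submitters' processing notes, the tools were TopHat2 2.0.10 with Cufflinks 2.2.1, and both GRCh38.p12 and BDGP5 are listed as builds, with no roles stated. No source used here states the annotation, the filters or whether strand was used, so reads of overlapping genes may not be separable. Of 14952 loci, 1909 with no gene name, 308 with several names and 21 whose name had become a date were left out, and 100 names on several lines were summed (0 of them members). The higher value of each locus was at least 0.652 RPKM. Depth is unknown: among 2212 loci under 2 RPKM, at most 29 log2 ratios fell within 0.01, so no read steps were seen, and no interval could be given.

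Differences use a pseudocount of 1 RPKM and genes whose mean reached 1 RPKM. The members, complexes, lists and alternatives were chosen with earlier results of these data known. Genes were named by rule: SMARCA4, SMARCA2, all paralogs, the extremes of each group, members past 1.5-fold, and the highest and lowest in level. Other members were added, and 1 member is counted but not reported here by itself. Coordinates, transcripts and short RNA genes came from GENCODE release 29 (GRCh38), and promoters from RefSeq (GRCh38.p14). The most upstream start was shown. Shared words are 50-base words of coding transcripts found in the same orientation in transcripts of another gene; the read length was not known. Alternatives were pseudocounts of 0.1 and 5 RPKM, other filters, 3 scalings, a 1.5-fold rule and loci with several names. The counting code was run on simulated data with large changes built in, which checks the code and not the counts reported here. Python 3.11.15, numpy 2.4.6, pandas 2.3.3, scipy 1.17.1 and matplotlib 3.10.9 were used.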

Additional observations from a re-analysis of the deposited data

How the results depend on the processing

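The count of 0 members past 2-fold held under all 8 alternatives. A 1.5-fold rule, applied to the values as deposited only, also gave 0 members. As deposited, 95.5% of all genes had a log2 change of at most 0.6 in size. With equal sums SMARCD3 was at -0.65, which is past 1.5-fold. Past a log2 change of 0.32 in size, the count of 1 higher and 2 lower members became 2 higher with a pseudocount of 0.1 RPKM (SMARCA2 and CHD1) and 0 higher and 1 lower with a pseudocount of 5 RPKM. The share of all genes was not taken with these pseudocounts. With both libraries rescaled to the same summed RPKM over all loci, the count became 0 higher and 14 lower. Of all genes, 2.74% were then higher and 25.1% lower. That scaling moved the median of the members to -0.22 and the group medians to -0.18 (INO80 and EP400), -0.22 (ISWI and NURF), -0.23 (NuRD), -0.12 (SWI/SNF ATPases), -0.24 (form-specific subunits), -0.12 (shared core), -0.0067 (lone SMARC helicases), -0.29 (other ARID), -0.15 (other CHD), -0.25 (other MBD) and -0.37 (other bromodomain proteins), because its factor of -0.20 on the log2 scale applies to every gene. No other alternative moved a group median by 0.1 or more, but medians near 0 changed sign: that of other CHD became -0.0079 when means under 5 RPKM were dropped and that of INO80 and EP400 became -0.0023 with equal sums of named loci. The distance between the medians of members and all genes ran from -0.06 to -0.04 over the 8 alternatives. Paralog shares do not depend on scaling. Leaving out a library was not possible with 1 per group. No paired analysis was possible because each group has 1 library. RPKM without counts gives no counting error, so small differences at levels such as that of INO80D cannot be weighed against depth.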

Other observations

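The bases AATATGC, a word that an earlier look at these same libraries picked as enriched in 3′ UTRs of genes lower in the knockdown library, occur in the longest annotated 3′ UTR of 10 of the 58 members, among them ARID2, ARID4A, BRD7, CHD7, CHD9, MBD1, RBBP7, SMARCA5 and SMARCAD1. Of these 10 genes 8 were below 0 as deposited and 10 with equal sums, with a median log2 change of -0.04 as deposited. Of the 47 counted members without the word 26 were below 0 as deposited and 39 with equal sums, with a median of -0.03 as deposited. The shares of all genes below 0 were 47.9% and 78.1%. The 3 members past a log2 change of 0.32 in size, SMARCD3, MTA3 and SMARCA2, do not carry it. Because the word was chosen on the same comparison, these values are a description and support nothing further.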
